A study of Mus musculus with 4 samples.

Results

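The capped U-class small RNAs described here are 11 rows of the gene count tables, chosen by symbol from 33924 rows: U1, U2, U3, U4, U5, U7, U8, U11, U12, Snord13 and Snord118. The choice was made with the counts of these libraries in view, so that all levels and ratios of these rows are given as a description, without a test. Of the 11 rows, 9 had a count in any library, 8 had at least 40 counts over all libraries and 6 had at least 20 counts in every library (U1, U3, U4, U5, Snord13 and Snord118).

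The study asked which genes keep a steady level in the aging mouse liver. The 4 groups used here are male C57BL/6Rj mice (labelled C57BL6) with no treatment or genetic change stated, killed at 3, 9, 15 or 21 months, and each group is 1 library of pooled liver RNA from 24 mice (6 times of the day, 4 mice each). No group has a replicate, and age cannot be told apart from any other difference between 2 pools. The libraries hold 35 bp reads from the capped 5’-ends of RNA, counted per gene symbol.

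U-class RNAs are short noncoding RNAs that act inside ribonucleoprotein particles. Those named here are transcribed by RNA polymerase II from their own promoters, with the Integrator complex cutting the 3’-end, and carry a cap that is later trimethylated. U1, U2, U4 and U5 are parts of the major spliceosome, and U11 and U12 take the places of U1 and U2 in the minor spliceosome. U7 guides the 3’-end cleavage of histone pre-mRNA. U3, Snord13 (also U13) and Snord118 (also U8) are box C/D RNAs of the nucleolus that serve the maturation of ribosomal RNA. Most other box C/D RNAs are cut out of introns and bear no cap.

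U1 and U3, which are among the most abundant rows and have many copies, are shown first, since their sequence decides how reads from them can be placed on the genome. All sequences are RNA-coding strands from the NCBIM37 assembly (mm9) with the start and end of the GENCODE M1 annotation, 5’ to 3’.

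The symbol U1 is shared by 206 loci. The copy below is chr2:117074007-117074170 on the plus strand, whose first 35 bases are found at 20 places without a mismatch. Capitals mark the stretch that pairs with the 5’ splice site (ACTTACCTG, bases 3 to 11) and the binding site of the Sm ring (AATTTGTGG, bases 125 to 133).

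U1: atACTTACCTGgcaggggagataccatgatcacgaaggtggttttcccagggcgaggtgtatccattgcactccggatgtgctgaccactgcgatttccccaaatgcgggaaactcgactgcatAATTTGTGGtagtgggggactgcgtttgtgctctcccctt

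The symbol U3 is shared by 47 loci, and a full-length copy lies at chr1:39576378-39576591 on the plus strand. Capitals mark box B (GAGCGTGAA, bases 106 to 114), which binds the U3-specific protein Rrp9, and box C (TGATGA, bases 157 to 162).

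U3: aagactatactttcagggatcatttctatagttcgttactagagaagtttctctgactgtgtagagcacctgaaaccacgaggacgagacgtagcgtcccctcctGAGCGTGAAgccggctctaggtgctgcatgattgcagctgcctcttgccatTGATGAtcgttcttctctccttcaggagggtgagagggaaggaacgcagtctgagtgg

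The 4 libraries held 955934, 958586, 525772 and 735962 counts on genes at 3, 9, 15 and 21 months, and 3 counts correspond to between 3.13 and 5.71 CPM (counts per 1000000 counts on genes). Records on genes were between 6.67 and 8.42% of all records. Records without a unique alignment, which are not assigned to any gene, were 72.2, 76.7, 74.6 and 76.0% of all records at 3, 9, 15 and 21 months. All 9 hepatocyte markers were detected in every library, with summed levels between 111335 and 120065 CPM (Alb alone between 54574 and 65169). The 17 markers of other liver cells summed to between 1189 and 1438 CPM, with 2 or 3 markers at 0 in each library. Reads start at the 5’-end, so that levels of different rows are compared per 5’-end and not per length. Intervals below are 95% intervals of the counting error only, and reads without molecular identifiers are not independent molecules.

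The 11 rows together took 68010, 119956, 52983 and 64337 counts. These were 7.11, 12.5, 10.1 and 8.74% of the counts on genes at 3, 9, 15 and 21 months, so that the 9 month pool was the highest and the 3 month pool the lowest. The ratio between both was 1.76 (from 1.74 to 1.78). In the same step, 5 of the 10 markers of other liver cells with at least 40 counts were at least 1.5-fold higher and 1 lower (16.5 and 20.9% of all genes), with a median of 1.53. Of the 4 markers with most counts, Dcn of stellate cells had 1.96 (from 1.64 to 2.34), Cd5l 1.35, Clec4f 0.997 and Kdr 0.607 (from 0.467 to 0.785). All 17 markers summed to 1189 CPM at 3 months and 1438 CPM at 9 months. The 9 hepatocyte markers had a median of 1.23 for 9 over 3 months, with 0 of them at least 1.5-fold higher or lower. For 21 over 3 months the median was 1.41 for the 10 markers of other liver cells and 0.995 for the 9 hepatocyte markers. The 8 of the 11 rows with at least 40 counts had a median of 1.08 for 9 over 3 months and 1.30 for 21 over 3 months. The part of other liver cells in the levels of the U RNAs was not tested, and fewer cells of a type cannot be told apart from less RNA per cell. Of all counts on rows annotated as snRNA or snoRNA, the 11 rows took 73.6, 81.5, 73.2 and 75.3%. Nearly all of it came from Snord13, U1 and U3, and their order was not the same in each pool.

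Among the spliceosomal RNAs, U1, which recognises the 5’ splice site, was by far the most abundant row. U1 had 21923, 24928, 16258 and 22641 counts in the pools of rising age. These counts were 2.29% (from 2.26 to 2.32), 2.60% (from 2.57 to 2.63), 3.09% (from 3.05 to 3.14) and 3.08% (from 3.04 to 3.12) of the counts on genes. The level was lowest at 3 months, higher at 9 months and highest in the pair of older pools, whose intervals overlap, but with all records as the denominator 9 over 3 months was 0.999, and with records on genes, on no feature or ambiguous 15 over 9 months was 0.982. The highest share was 1.35 times the lowest (from 1.32 to 1.38), the smallest span among the 6 rows with at least 20 counts in every library.

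U5, whose loop 1 aligns the exons, had few counts until 21 months. It had 101, 104, 42 and 274 counts at 3, 9, 15 and 21 months. On the CPM scale, these were 106 (from 87.0 to 128), 108 (from 89.6 to 131), 79.9 (from 59.1 to 108) and 372 (from 331 to 419). The 21 month pool stood above the other 3, which overlap with their neighbours in the order of levels. The ratio of 21 over 15 months was 4.66 (from 3.36 to 6.61), and that of 21 over 3 months was 3.52 (from 2.80 to 4.47).

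U4, the partner that keeps U6 inactive until the spliceosome is assembled, had 179, 273, 82 and 183 counts. Its levels were 187, 285, 156 and 249 CPM at 3, 9, 15 and 21 months. The order from low to high was 15, 3, 21 and 9 months, and all neighbours in it overlap. The lowest and the highest level did not, with a ratio of 1.83 (from 1.42 to 2.37).

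U2, which pairs with the branch point, was near the limit of detection with 13, 8, 10 and 15 counts. All neighbours in its order overlap, and the ratio of the highest to the lowest level had an interval from 0.972 to 6.65. U2 is an abundant RNA in all nucleated cells, and reads from its main copies match many places (given with the loci), so that this row was not taken as the level of U2 RNA. Starts of U1, U3, U4 and U5 also match up to 20, 16, 5 and 8 places exactly, and records without a unique alignment are not assigned. Their levels are therefore those of the rows, and how far they follow the RNAs was not tested. U12 had 29, 4, 3 and 14 counts, with its highest level at 3 months (30.3 CPM, from 21.1 to 43.6) and its lowest at 9 months (4.17, from 1.62 to 10.7). The ratio of 9 over 3 months was 0.138 (from 0.0351 to 0.392). U11 had 0 counts in every library, for which a limit of 3 counts per library is given (between 3.13 and 5.71 CPM), which is not a bound of the Wilson interval, and U7 had 2 counts in the 9 month library alone.

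**Figure D1:**
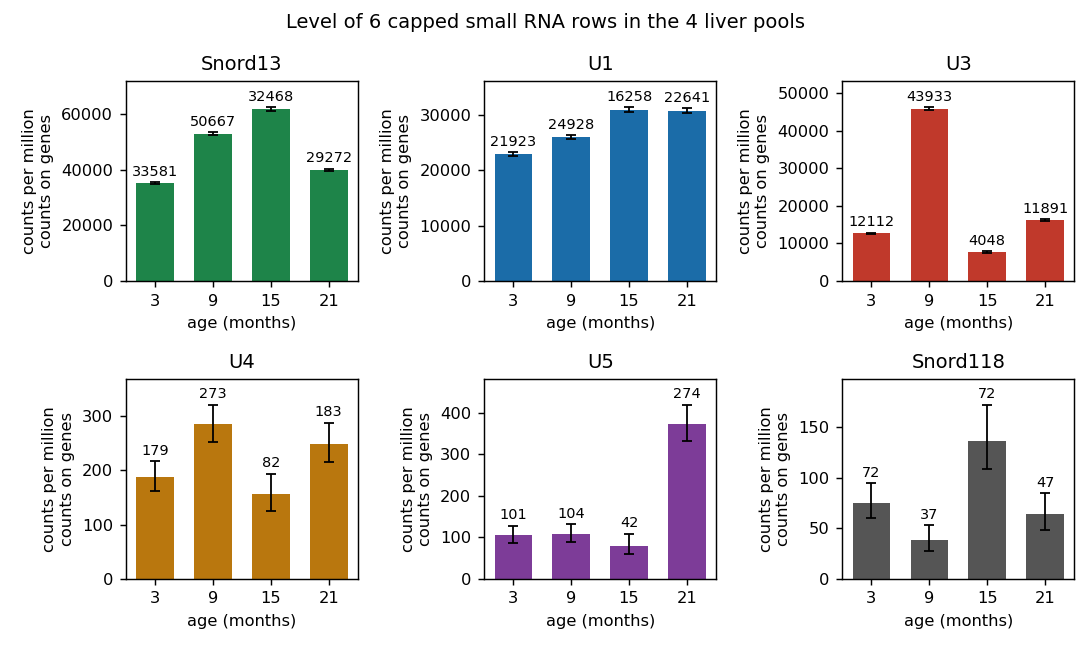
Level of the 6 rows with at least 20 counts in every library, in CPM, by age. Bars start at 0 and have their own scale in each panel, error bars are 95% Wilson intervals of the counting error in 1 pooled library, and the number above a bar is the count. U3 is highest at 9 months (43933 counts), U5 at 21 months (274 counts) and Snord118 at 15 months. Snord13 is highest at 15 months on this scale, and at 9 months where records on no feature or ambiguous are added to the denominator (15 over 9 months 0.965).

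Among the nucleolar RNAs, Snord13, which pairs with the small subunit ribosomal RNA and guides its acetylation, was the most abundant member. It had 33581, 50667, 32468 and 29272 counts at 3, 9, 15 and 21 months. As shares of the counts on genes, these were 3.51% (from 3.48 to 3.55), 5.29% (from 5.24 to 5.33), 6.18% (from 6.11 to 6.24) and 3.98% (from 3.93 to 4.02). Snord13 was the first of all 33924 rows at 15 months and the second in the other 3 libraries. Divided by records on genes, on no feature or ambiguous, 15 over 9 months was 0.965, and divided by all records 21 over 3 months was 0.993, so that the highest and the lowest pool are not fixed. As shares of the counts on genes, no neighbours in the order of 3, 21, 9 and 15 months overlap, and the highest share was 1.76 times the lowest (from 1.73 to 1.78).

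U3, which is needed for the first cleavages of the ribosomal RNA precursor, varied most among the 3 abundant rows. It had 12112, 43933, 4048 and 11891 counts. These were 1.27% (from 1.24 to 1.29), 4.58% (from 4.54 to 4.63), 0.770% (from 0.747 to 0.794) and 1.62% (from 1.59 to 1.64) of the counts on genes at 3, 9, 15 and 21 months. The 9 month pool was the highest and the 15 month pool the lowest, and no neighbours in the order overlap. Between these pools the share differed by a factor of 5.95 (from 5.76 to 6.15). U3 thus held rank 10, 3, 19 and 9 among all rows, whereas U1 held rank 6, 4, 3 and 3. The 9 month library also had the highest percentage of records without a unique alignment (76.7%), and the part of this in the U3 level was not tested.

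Snord118, which is needed for the maturation of the large subunit RNAs, had 72, 37, 72 and 47 counts. Its levels were 75.3, 38.6, 137 and 63.9 CPM. The order from low to high was 9, 21, 3 and 15 months, in which 15 months stood apart from the others. The ratio of 15 over 9 months was 3.55 (from 2.35 to 5.43), a step in which U3 was lower. The separate row U8, which names 4 further loci of the same RNA family, had 0 counts in all libraries.

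The abundant rows were also compared within each library, where the total of the library cancels out. U3 per Snord13 was 0.361, 0.867, 0.125 and 0.406 at 3, 9, 15 and 21 months, with 0.121 to 0.129 as the interval of the lowest and 0.856 to 0.878 as that of the highest ratio. U3 per U1 was 0.552, 1.76, 0.249 and 0.525, so that U3 exceeded U1 at 9 months alone. U1 per Snord13 stayed in a narrower range with 0.653, 0.492, 0.501 and 0.773. U5 per U4 was 0.564, 0.381 and 0.512 until 15 months and 1.497 (from 1.24 to 1.82) at 21 months. The high U3 level at 9 months and the high U5 level at 21 months are also seen without any library total. These ratios use the same counts as the levels above, so that they are no second measurement.

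**Figure D2:**
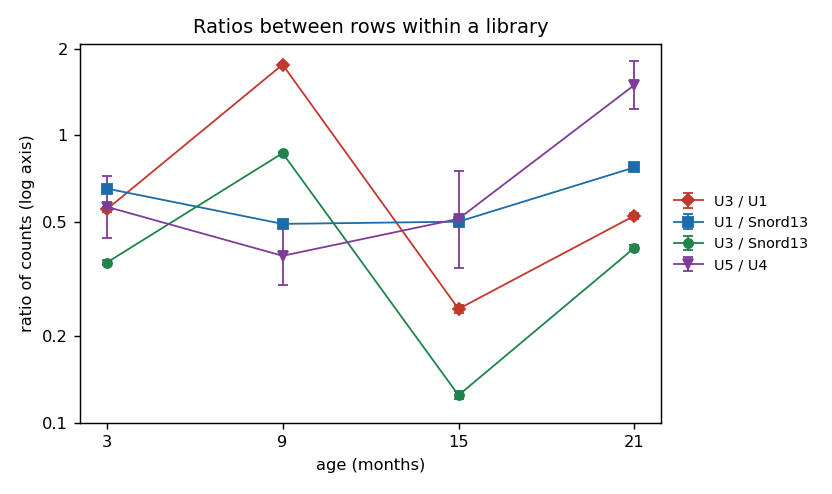
Ratios of the counts of 2 rows in the same library, on a log axis, by age, with 95% Clopper-Pearson intervals of the counting error. Lines join the 4 pools for readability. The 2 ratios with U3 on top are highest at 9 months (1.76 per U1, 0.867 per Snord13) and lowest at 15 months (0.249 and 0.125), and U5 per U4 is highest at 21 months (1.497).

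How far reads from these RNAs could be assigned was examined on the genome, independently of the counts. The 11 symbols cover 490 annotated loci. For 357 of them the first 35 bases matched no other place with at most 1 mismatch, and for 133 they did. With exact matches only, 391 loci were unique, among them 177 of U1, 15 of U3 and 36 of U4. Below, unique stands for the search with at most 1 mismatch. U1 had 206 loci, 167 of them with a unique start. U2 had 51 loci (29 unique), U3 had 47 (10 unique), U4 had 43 (28 unique), U5 had 10 (3 unique), U7 had 116 (106 unique) and U12 had 6 (4 unique). All 4 loci of U8 and all 5 of U11 were unique. Snord118 was unique at its only locus, chr11:68886929-68887063 on the plus strand. Snord13 has a single locus, with 1 exact place and 1 further place with 1 mismatch.

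The loci were also searched for known functional sequences. The search covered the RNA-coding strand of each locus, and the motifs do not overlap. In U1, both the splice site pairing stretch and the Sm site were found in 34 of 206 loci, 7 of the 167 unique and 27 of the 39 not unique ones. The pairing stretch was in 54 loci (21 unique, 33 not) and the Sm site in 63 (36 unique, 27 not). Box B and box C of U3 were found together in 9 of 47 loci, none of which had a unique start. The single, unique locus of Snord118 held TGATGA and CTGA, the letters of box C and box D. The same letters are rare in stretches of RefSeq promoters (GRCm38.p6) cut to the median length of the loci and read on the gene's strand, apart from CTGA (49.0% at the length of Snord118), with 0.0883% for ACTTACCTG, 0.0548% for AATTTGTGG, 0.0183% for GAGCGTGAA and 1.85% for TGATGA (2.70% at the length of Snord118).

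The largest family of identical starts in U1 had 20 loci, of which 6 lie within chr3:96132348-96292816 and 6 within chr12:55340225-55839609. The most frequent start of U2 was shared by 13 loci and matched 102 places exactly and 256 with at most 1 mismatch, and the U2 row had 46 counts in all. U12 had a start shared by its loci at chr15:82980074-82980224 on the plus and chr2:129141065-129141215 on the minus strand. Of the U5 loci, 6 share a start found at 8 exact places, and 1 of these overlaps a same-strand exon of B930036N10Rik, where a read can be ambiguous. The files give no counts by locus, so that it cannot be said which of the copies gave the counts of a row.

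The U3 loci show how the copies differ, as this row had the widest span of counts among the abundant ones. The common start belongs to 9 loci, 4 of them full-length copies within chr11:87256739-87285083. A group of 22 short copies of 89 or 90 bases lies within chrX:144182240-146468776 on the minus strand, and none of these holds box B or box C. The lines below give the first 35 bases of the common start, of the short X copies, of 3 copies with a single exact place but further places at 1 mismatch, and of 4 copies with a unique start. Capitals mark bases that differ from the first line.
Common start, chr1:39576378-39576412 plus: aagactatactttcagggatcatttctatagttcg
Short X copy, chrX:144246969-144247003 minus: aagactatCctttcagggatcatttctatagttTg
Chromosome 10, chr10:39978273-39978307 plus: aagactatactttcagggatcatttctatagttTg
Chromosome 12, chr12:103491863-103491897 minus: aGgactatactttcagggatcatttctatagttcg
Chromosome 2, chr2:120829825-120829859 plus: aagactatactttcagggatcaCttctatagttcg
Chromosome 5, chr5:15354247-15354281 minus: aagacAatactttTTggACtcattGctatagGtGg
Chromosome 8, chr8:77986660-77986694 minus: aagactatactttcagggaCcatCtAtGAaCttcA
Chromosome 11, chr11:86130768-86130802 plus: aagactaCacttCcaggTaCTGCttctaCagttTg
Chromosome 2, chr2:161271232-161271266 minus: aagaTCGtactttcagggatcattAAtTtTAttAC
The 3 copies with a single exact place differ from the common start at 1 base, and the 4 unique ones at between 7 and 10 bases.

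**Figure D3:**
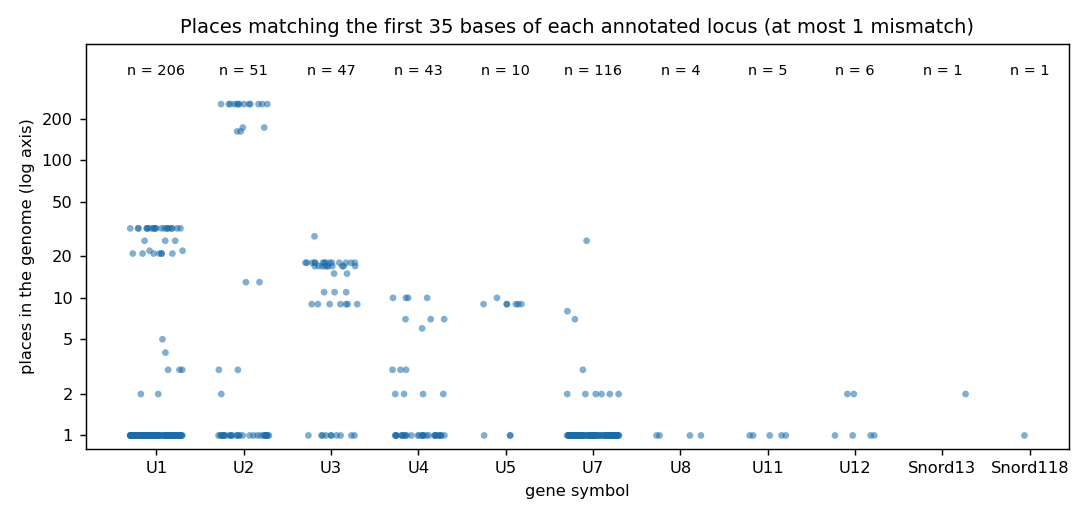
Number of places in the genome that match the first 35 bases of a locus with at most 1 mismatch, on a log axis, for each of the 490 loci by gene symbol. Each point is 1 locus, shifted sideways at random for visibility, and a value of 1 means a unique start. The loci of U2 reach 256 places, those of U1 reach 32 and those of U3 reach 28.

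The ratios between pools were set beside all genes with at least 40 counts over the 4 libraries, of which there were 5090. From 3 to 9 months, 3 of the 8 rows that passed this minimum were at least 1.5-fold higher (U3, U4 and Snord13), beside 16.5% of all genes, and 3 were at least 1.5-fold lower (U2, U12 and Snord118), beside 20.9%. From 9 to 15 months, 2 were higher (U2 and Snord118; 23.6% of all genes) and 2 were lower (U3 and U4; 16.6%). From 15 to 21 months, 4 were higher (U3, U4, U5 and U12; 19.9%) and 2 were lower (Snord13 and Snord118; 21.7%). For 21 over 3 months, U5 was higher (19.0%) and U12 lower (20.1%). The rows were chosen with these values in view, and each step shares a library with the next, so that nothing is read from the counts of rows.

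The sizes differed between the rows. U3 had a ratio of 3.62 (from 3.55 to 3.69) for 9 over 3 months, 0.168 (from 0.163 to 0.173) for 15 over 9 months and 2.10 (from 2.02 to 2.18) for 21 over 15 months. The first lay above the 95th percentile of all genes (2.27) and the second below the 5th percentile (0.399). Snord13 had ratios of 1.505, 1.17 and 0.644 in the same steps, and U1 had 1.13, 1.19 and 0.995. Over the whole span, 21 over 3 months, U3 came to 1.28, U1 to 1.34, U4 to 1.33, Snord13 to 1.13 and Snord118 to 0.848 (from 0.574 to 1.24), whereas U5 came to 3.52. The median of all genes was between 0.960 and 1.06 in the 4 comparisons. For 15 over 9 months, TMM factors moved all log2 ratios by -0.14 and records on genes, on no feature or ambiguous by -0.28. Of the genes past 1.5-fold in that step, 58.7% were higher, as against 45.7% with TMM factors, 45.9% with DESeq2 size factors, 34.6% with records on genes, on no feature or ambiguous, and 44.6% with all records. For 21 over 15 months the 47.8% higher became 66.5 and 60.1% with the latter 2 denominators. With all records, the 44.1% for 9 over 3 months became 27.8% and the 48.6% for 21 over 3 months 32.9%.

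**Figure D4:**
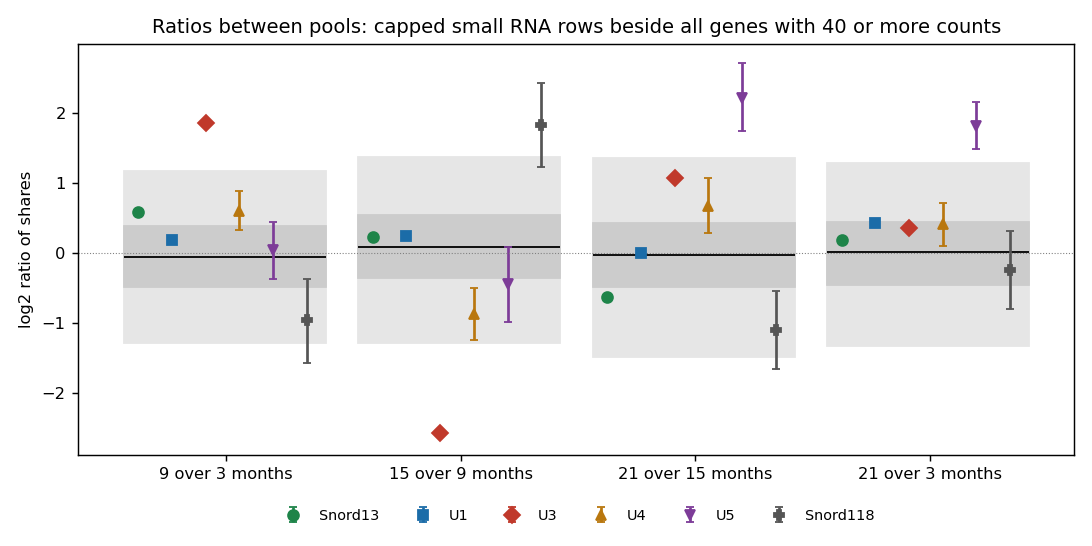
Ratio of the shares of the counts on genes between 2 pools, as log2, for 6 rows (symbols with 95% intervals of the counting error) in 4 comparisons. Light bars span the 5th to 95th and dark bars the 25th to 75th percentile of the genes with at least 40 counts, and the black line is their median. U3 leaves the light bar upwards for 9 over 3 months (3.62-fold) and downwards for 15 over 9 months (0.168-fold). U5 leaves it upwards for 21 over 15 months (4.66-fold) and 21 over 3 months (3.52-fold), and Snord118 upwards for 15 over 9 months (3.55-fold).

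Genes with a course most like that of a member were looked for among 1955 other genes with at least 20 counts in every library. The distance was the largest difference in log2 share over the 4 ages, after subtraction of each gene's mean. For U3 the nearest gene was Selenbp2 with 279, 564, 141 and 199 counts and a distance of 0.77, followed by AW112010, Gckr, Gm10495 and Ces2c, and no gene was within 0.5. For U5 there were 3 genes within 0.5, namely Rpl36 (0.38), Tug1 (0.44) and Acmsd (0.45), followed by Rpn1 and Tpp2. Rpl36 had 85, 56, 38 and 163 counts, and Tug1 had 45, 67, 34 and 151. For Snord118 the 5 nearest were Ndufa8 (0.20), Eif4a2, Crebl2, Ipo8 and Pgm2, and 64 genes were within 0.5. U4 had Pnp (0.06), Copg, Erap1, Anxa6 and Ndufv3 as the nearest and 503 genes within 0.5. Snord13 had Ubl7 (0.07), Slc9a3r1, Atp5o, Mbnl1 and SCARNA20 and 708 such genes, and U1 had Phb2 (0.04), Cradd, Ndufb9, Sepx1 and Lpin1 and 1224. With 4 points per course, small distances are common for genes that vary little.

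The protein genes of these particles had low counts in this assay. For a trend with age over all genes, edgeR's quasi-likelihood test with Benjamini-Hochberg adjustment called 3 rising and 3 falling of 3599 genes (0.0834% each). One of the 6 was a row of the rule. The rows of the rule were chosen with their counts in view, so that this call is not read as a result. The other 5, named after their values were seen, were Hist1h1c, Ndufs7, Rpsa, Snora78 and Tug1. At an unadjusted p under 0.05 there were 211 genes, and DESeq2 called 0 genes (123 at an unadjusted p under 0.05).

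Of 46 genes for spliceosomal snRNP proteins, 20 had at least 40 counts. From 3 to 9 months 2 of the 20 were at least 1.5-fold higher and 8 lower, beside 16.5 and 20.9% of all genes, with a median ratio of 0.765 (0.960 over all genes). From 9 to 15 months 6 were higher and 6 lower (23.6 and 16.6% of all genes), with a median of 1.09. From 15 to 21 months 6 were higher and 5 lower (19.9 and 21.7%), with a median of 1.004. For 21 over 3 months, 1 was higher and 6 were lower (19.0 and 20.1%), with a median of 0.9496. Prpf8, the scaffold around the catalytic centre, had 220, 165, 96 and 174 counts. Prpf6, which bridges U5 and U4/U6, had 91, 58, 30 and 66 counts, and the helicase Snrnp200 had 74, 58, 42 and 43. Snrpg, a protein of the Sm ring, had 74, 35, 31 and 75. Of the 13 genes in the trend fit, edgeR called 0, with 0 at an unadjusted p under 0.05, and DESeq2 called 0.

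Of 44 genes for proteins of U3, of box C/D particles and of the small subunit processome, 14 had at least 40 counts. From 3 to 9 months 6 of them were at least 1.5-fold higher and 3 lower (16.5 and 20.9% of all genes), with a median of 1.06. From 9 to 15 months 5 were higher and 2 lower (23.6 and 16.6%), with a median of 1.14. From 15 to 21 months 2 were higher and 2 lower (19.9 and 21.7%), with a median of 1.14, and for 21 over 3 months 6 were higher and 2 lower (19.0 and 20.1%), with a median of 1.13. Imp3, a U3 particle protein, had 59, 56, 49 and 49 counts, and Wdr46 had 60, 44, 21 and 39. Utp6 had 37, 60, 33 and 20, and Nol6 had 13, 30, 14 and 24. For 9 over 3 months, the ratio was 1.62 for Utp6 (from 1.06 to 2.51), 2.30 for Nol6 (from 1.16 to 4.81), 0.947 for Imp3 (from 0.645 to 1.39) and 0.731 for Wdr46 (from 0.484 to 1.10). At 15 months, when the U3 row was lowest, the summed level of the 44 genes was 582 CPM, beside 512, 485 and 503 at 3, 9 and 21 months. These sums rest on 306 counts at 15 months and on 489, 465 and 370 at 3, 9 and 21 months. Divided by records on genes, on no feature or ambiguous (-0.28 in log2 for 15 over 9 months), the level at 15 months was not above that at 9 months. Among the 7 genes in the trend fit, edgeR called 0, with 0 at an unadjusted p under 0.05, and DESeq2 called 0.

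The genes that make and transport U RNAs were mostly too low to be followed. Of 22 genes for cap binding, export and assembly, 4 had at least 40 counts: the import receptor Kpnb1 (40, 34, 6 and 36 counts), the assembly factor Strap (19, 26, 13 and 15), Srrt of the cap-bound complex (8, 14, 12 and 18) and the export receptor Xpo1 (12, 15, 7 and 13). Of 22 genes for transcription and 3’-end formation, 5 had at least 40 counts. Ints3 had 27, 29, 26 and 27 counts and Ints1 had 17, 12, 11 and 10, both subunits of Integrator, and the elongation factors Ell2 and Ell had 31, 14, 10 and 20 and 12, 13, 10 and 13. Of 10 genes listed for histone mRNA processing with U7, 3 had at least 40 counts. The 4 highest were Sympk (31, 26, 15 and 26), Ncoa6 (12, 23, 14 and 18), Cpsf3 (10, 20, 15 and 14) and Cpsf2 (3, 11, 6 and 4). Ncoa6 is a nuclear receptor coactivator and not a known part of this machinery, so that its counts are not read as those of a processing gene. In these 3 lists edgeR called 0 of 2, 0 of 4 and 0 of 2 genes in the fit, with 0 at an unadjusted p under 0.05, and DESeq2 called 0. The 2 marker lists also had 0 of 9 called each by both tools, with 0 hepatocyte markers and 1 marker of other liver cells at an unadjusted p under 0.05.

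Other small RNA rows took smaller shares and did not all have the order of the U rows. The 124 other box C/D rows summed to 1.94, 2.28, 2.84 and 2.24% of the counts on genes at 3, 9, 15 and 21 months, highest at 15 months. Most RNAs of this class bear no cap, while uncapped RNA was digested before sequencing. How reads came onto these rows was not tested, so that their shares are not levels like that of U3. From 9 to 15 months, 21 of the 45 box C/D rows with at least 40 counts were at least 1.5-fold higher and 2 lower (23.6 and 16.6% of all genes), with a median of 1.47, whereas U3 was at 0.168. From 15 to 21 months 6 were higher and 20 lower (19.9 and 21.7%), with a median of 0.726, whereas U3 was at 2.10. The 102 H/ACA rows came to 0.294, 0.287, 0.477 and 0.311%. The polymerase III transcripts 7SK (0.130, 0.134, 0.175 and 0.156%) and U6 with U6atac (191, 236, 176 and 209 counts) were not highest at 9 months under any of the denominators. The 5S rRNA rows came to 0.276, 0.158, 0.186 and 0.279% and Y_RNA to 0.196, 0.150, 0.216 and 0.289%, both lowest at 9 months, except that 15 over 9 months was 0.968 for 5S rRNA with records on genes, on no feature or ambiguous as the denominator. Rows named Rnu, which would be single loci of U RNAs, were not among the 33924 symbols.

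**Figure D5:**
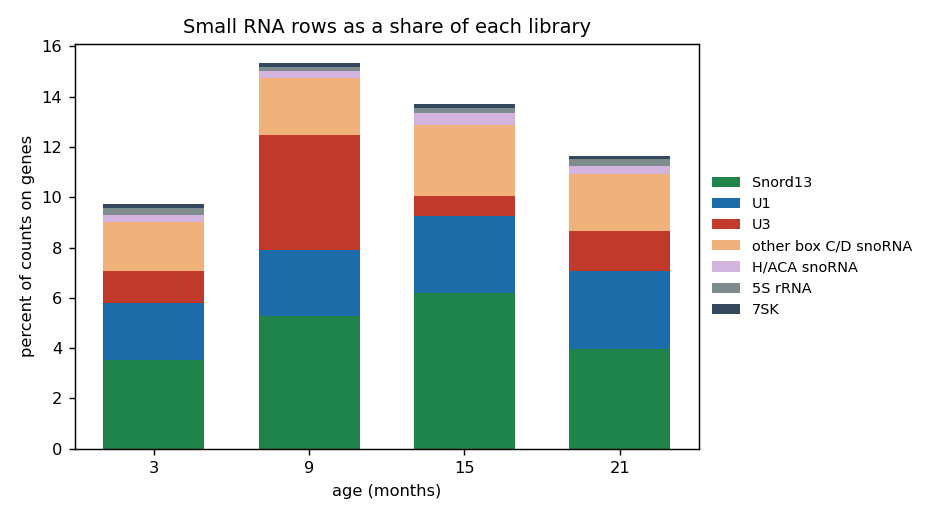
Share of the counts on genes, in percent, taken by Snord13, U1 and U3 and by 4 other classes of small RNA rows in the 4 pools (stacked bars from 0). The U3 segment is largest at 9 months (4.58%) and smallest at 15 months (0.770%), while the other box C/D rows stay between 1.94 and 2.84%. Most RNAs of the latter rows bear no cap, so that their shares are not levels like that of U3.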

How the data were processed

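Liver RNA of mice of 4 ages was measured in 1 pooled library each. According to the methods of the study, uncapped RNA was digested, linkers were ligated to capped 5’-ends, and 35 bp reads from a SOLiD instrument were aligned against mm9 in the CLC Genomic workbench. Values in the deposited files are raw counts, 1 whole number per gene symbol and library, and the submitters' processing notes name HTSeq. The version, the annotation and the strand setting are not given in the sources used here. The rows that count unassigned records were left out of library totals.

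The members and lists were chosen with earlier results of these data known. Samples were grouped by their age label. Shares of the counts on genes have 95% Wilson intervals and ratios exact Clopper-Pearson intervals on both counts. The trend with age was fitted with edgeR 4.0.16 (R 4.3.3, TMM factors, filterByExpr, slope on months, 2 residual degrees of freedom, adjusted p of 0.05), and its spread is that between pools. DESeq2 1.42.0, other denominators and filters and the omission of each library were alternatives. The first 35 bases of each locus in GENCODE M1 were searched on both strands of NCBIM37 with at most 1 mismatch. Scripts ran in Python 3.11.15 (numba 0.67.0, matplotlib 3.10.9, scipy 1.17.1, pandas 2.3.3, numpy 2.4.6) and were tested on simulated data.

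Named genes were all rows of the rule, the 4 genes of each list with most counts and any called by the trend, and the 5 genes nearest to the course of each member with at least 20 counts in every library. The sequences of U5 and Snord13 are not reported here.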

Additional observations from a re-analysis of the deposited data

How the results depend on the processing

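The summed share of the 11 rows depended on what it was divided by. At 3 months it was 7.18% with DESeq2 size factors, 9.53% without the 10 most abundant genes, 8.52% per counts on protein-coding genes, 2.16% per records on genes, on no feature or ambiguous, and 0.599% per all records. At 9 months these were 13.1, 17.6, 15.9, 3.98 and 0.928%, and 13.2% with TMM factors. The summed ratio for 9 over 3 months was 1.85 with TMM factors, 1.82 with DESeq2 size factors, 1.85 without the 10 most abundant genes, 1.86 with protein-coding genes, 1.84 with records on genes, on no feature or ambiguous, and 1.55 with all records. For 15 over 9 months it was 0.732, 0.735 and 0.776 in the first 3 of these and 0.665 and 0.725 in the last 2. For 21 over 15 months it was 0.894, 0.906, 0.880, 0.829, 1.02 and 0.960, so that records on genes, on no feature or ambiguous turned the direction, and for 21 over 3 months 1.21, 1.21, 1.27, 1.25, 1.25 and 1.08. All records turned U1 for 9 over 3 months (0.999) and Snord13 for 21 over 3 months (0.993). Records on genes, on no feature or ambiguous turned U1 (0.982) and Snord13 (0.965) for 15 over 9 months. The cause was not tested. U3 stayed between 3.19 and 3.83 for 9 over 3 months and between 0.139 and 0.168 for 15 over 9 months, and U5 between 4.46 and 5.46 for 21 over 15 months, under all 6 denominators.

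With a 2-fold limit, 348 genes were higher and 482 lower for 9 over 3 months, 528 and 406 for 15 over 9 months, 490 and 523 for 21 over 15 months and 448 and 483 for 21 over 3 months. With at least 1 count in both libraries as the sole filter and 1.5-fold, the numbers were 2460 and 2937, 3311 and 2033, 2205 and 2649, and 2691 and 2689. The trend test called 0 rising and 0 falling genes with DESeq2, 5 rising without a filter, 0 rising without the 9 month library, 5 falling without the 15 month library, and 6 rising and 9 falling without the 21 month library. No paired analysis was possible because each age has 1 library. U2, U7, U11 and U12 had too few counts for narrow intervals, and U1, U2, U3, U4, U5, U7 and U12 have loci with identical starts. The part of either in the levels was not tested.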

Other observations

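Rows outside the rule were looked at after their values had been seen. U4atac, the partner of U6atac in the minor spliceosome, had 1105, 968, 584 and 725 counts at 3, 9, 15 and 21 months, between 0.0985 and 0.116% of the counts on genes and thus above the rows of U4, U5, U11 and U12 in every library. Starts of U4 and U5 match up to 5 and 8 places exactly, and the loci of U4atac were not searched. The order of these rows is therefore not read as an order of RNA levels. RNase_MRP, which cuts the ribosomal RNA precursor, had 1521, 631, 442 and 979 counts, with a ratio of 0.414 for 9 over 3 months (from 0.376 to 0.454), the step in which U3 had 3.62. The Vault row had 2174, 1772, 1734 and 1749 counts, with a ratio of 1.78 for 15 over 9 months (from 1.67 to 1.91). The telomerase RNA row (Telomerase-vert) had 10, 4, 8 and 3 counts.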
